A study of Mus musculus with 9 samples.

Results

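MR-only lost sites are places in the genome where the mineralocorticoid receptor (MR) was detected after corticosterone (CORT), where the glucocorticoid receptor (GR) was not detected after CORT, and where MR was no longer detected after CORT had been washed out. They were chosen from 3 deposited lists of MACS2-enriched binding sites, as MR peaks after CORT that shared no base with a GR peak after CORT and no base with an MR peak after washout. Of 14638 MR peaks after CORT, 14560 lay on chromosomes 1 to 19 and X, and 30 of these were set aside because they fell in coding exons of Nr3c1 or Nr3c2, which encode GR and MR. Of the remaining 14530 peaks, 6826 met the rule. The remaining 7704 fell into 797 MR-only retained sites (no GR peak, MR peak still present after washout), 4160 shared lost sites (GR peak after CORT, no MR peak after washout) and 2747 shared retained sites (GR peak after CORT and MR peak after washout).

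The measurements were made in Neuro2A (N2A) cells, a mouse neuroblastoma line, by ChIP-nexus, a chromatin immunoprecipitation in which an exonuclease trims the DNA up to the crosslinked protein. Every library came from cells transiently transfected with eGFP-GR + mCherry-MR, so both receptors were present in all groups, each as a tagged protein made from a plasmid. The methods of the study give both receptors as rat proteins, whereas the deposited description names mouse proteins. The cells have no MR of their own and some GR. MR was captured through mCherry and GR through EGFP after vehicle, after 20 minutes of 100 nM CORT (treatment ii), and after the same CORT followed by 2 washes and 40 minutes without steroid (washout, treatment iii), and input chromatin was kept for each treatment, which makes 9 samples. The authors combined 3 replicates per condition before calling peaks, so no value below has a replicate error, each test counts peaks and so compares the pooled libraries rather than replicated treatments, and 95% Wilson intervals cover counting error only. Read totals are given by the study for each treatment but cannot be computed from the peak lists, so they are not used here, and a site that a list lacks may only have missed its threshold.

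MR and GR are closely related steroid receptors that are activated by the same hormone, MR with the higher affinity. Once bound by hormone they move to the nucleus and bind, usually as dimers, a palindromic sequence called the glucocorticoid response element (GRE), or they are brought to DNA by other transcription factors such as AP-1. When the hormone is removed, hormone dissociates from the receptor and receptor leaves the chromatin.

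The GRE was searched as AGAACA and TGTTCT separated by any 3 bases, on both strands within 100 bp of each peak summit, with at most 3 mismatches among its 12 defined bases. The MR-only lost sites with the fewest mismatches are shown because they hold the clearest receptor sequence in the group. Each is 29 bases of the plus strand of GRCm38 (mm10) with the 15-base GRE match in capitals, written 5′ to 3′.
Fndc7, UTR, chr3:108855164-108855192: ttctgcaAGAACAGCCTGTTCTcttaacc
Rbfox3, intron, chr11:118504289-118504317: gccagtcAGAACACATTGTTCTggctctg
Sfmbt2, intron, chr2:10441076-10441104: atgggatAGAACAGTGTGTTCTgccctct
Tshz2, intron, chr2:169908311-169908339: agcaggcAGAACAGTTTGTTCTtaaagca
Ankra2, intron, chr13:98264285-98264313: cgtgcctAGAAGAAATTGTTCTttcctta
Prkcb, intron, chr7:122493108-122493136: tggtctcAGAACAGCCTGTTTTcaaatca

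The Fndc7, Rbfox3, Sfmbt2 and Tshz2 sites have 0 mismatches and are the 4 perfect GREs among the 6826 sites, and the Ankra2 and Prkcb sites have 1. In all, 117 sites have 1 mismatch. Ankra2 and Prkcb were picked from these as the strongest, leaving out chromosome 18, so their high strength follows from the choice. The Fndc7 summit lies in a repeat. Rbfox3 encodes a neuronal splicing factor, Tshz2 a zinc-finger transcription factor and Prkcb a protein kinase C. Their MR peaks after CORT differed in strength, here the −log10 p of the peak against input as MACS2 gives it. The value was 10.6 at Fndc7, 9.004 at Rbfox3, 6.44 at Sfmbt2, 4.97 at Tshz2, and 13.7 at both Ankra2 and Prkcb. The Tshz2 site, with a perfect GRE centred 3 bp from its summit, was thus among the weakest peaks of the list, whose lowest −log10 p was 4.56. The nearest GR peak after CORT was 238 bp away at Fndc7, 266 bp at Ankra2, 327 bp at Prkcb, 8624 bp at Tshz2, 29550 bp at Rbfox3 and 300595 bp at Sfmbt2. Of the sites with a perfect GRE, Fndc7 thus lay 238 bp from a GR peak and the others at least 8624 bp from one.

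The MR-only lost sites were the weaker and narrower MR peaks. Their median −log10 p was 7.83 (range 4.56 to 23.7), against 9.27 for MR-only retained, 9.17 for shared lost and 14.9 for shared retained sites. Their median width was 48.5 bp, against 67, 72 and 129 bp. Of all eligible MR peaks, 52.5% overlapped no GR peak, 75.6% overlapped no MR washout peak, and 47.0% overlapped neither. These are the values the choice of sites rests on and are given as a description. Among MR-only peaks 89.5% (88.8% to 90.2%) were lost after washout, and among peaks shared with GR 60.2% (59.1% to 61.4%).

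The share of MR-only lost sites fell along 5 bands of −log10 p of roughly equal size. It was 69.5% in the weakest band, then 63.4%, 52.2% and 36.6%, and 9.08% in the strongest band (226 of 2489 peaks). The percentage lost is given by band as a description, since both overlaps belong to the rule. In the weakest band 94.8% of MR-only and 86.7% of shared peaks were lost, and in the strongest band 64.6% and 30.7%. In the strongest band the sites also differed in strength, with a median −log10 p of 15.1 for all MR-only and 18.03 for all shared peaks, so a band matches strength in part. The odds ratios below were computed within these bands, while percentages, medians and densities without an odds ratio are pooled over them and do not take strength into account.

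**Figure D1:**
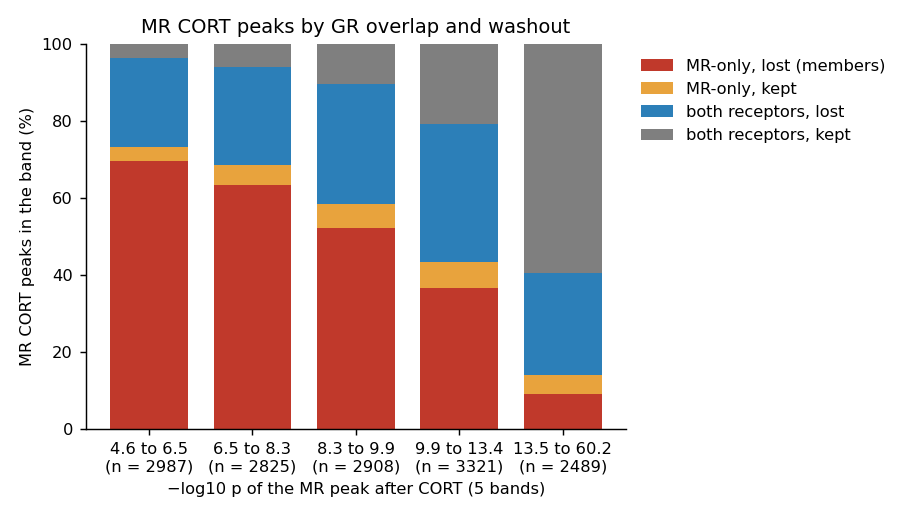
Stacked bars give the percentage of eligible MR peaks after CORT in each group (y axis) for 5 bands of −log10 p (x axis, with the number of peaks). The MR-only lost sites take 69.5% of the weakest band and 9.08% of the strongest, and the shared retained sites take 3.55% and 59.5%.

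Some MR-only lost sites had receptor binding close by. A GR peak after CORT lay within 100 bp, without overlap, of 738 sites (10.8%), and within 500 bp of 1418 (20.8%), against 12.4% and 23.3% of MR-only retained sites. The intervals of both groups overlapped within 100 bp (10.1% to 11.6% and 10.3% to 14.9%). They also did within 500 bp (19.8% to 21.8% and 20.5% to 26.4%). An MR washout peak lay within 500 bp of 676 (9.90%), against 15.7% of shared lost sites. A further MR summit after CORT lay within 1000 bp of 1958 sites (28.7%), against 36.1% of MR-only retained, 42.7% of shared lost and 46.6% of shared retained sites. These are percentages with no test, they are not matched for strength, and the rule itself rests on overlap with GR and washout peaks. At the far end, 3492 sites (51.2%) had neither a GR peak after CORT nor an MR washout peak within 10 kb. The boundary of the rule was narrow. Peak starts were read as counted from 0, which the files do not state, and if they count from 1 the 13 sites that adjoin a GR peak would share a base with it. At the sites in introns of Ankrd6, Traf5 and Rapgef5 the nearest GR peak adjoined with 0 bp between, at −log10 p of 13.4, 11.9 and 10.6. Just outside, MR peaks in Eif4g3 (17.8), near Efna5 (11.98) and in Ripply3 (11.1) shared 1 bp with a GR or MR washout peak and were not counted. Within 20 bp of such a peak lay 218 MR-only lost sites, and 67 sites outside the group overlapped by at most 5 bp in total.

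Other readouts of the same libraries were sparse at the MR-only lost sites and are given without a test. A MACE border pair is the stretch between the exonuclease stops on opposite strands. A pair of the MR library after CORT overlapped 234 MR-only lost sites by 1 bp or more (3.43%), against 9.91% of MR-only retained, 8.15% of shared lost and 29.9% of shared retained sites. Wider peaks offer more bases to overlap, and the median widths were 48.5, 67, 72 and 129 bp in that order. A border pair of input chromatin, from any treatment, overlapped 21 MR-only lost sites. A vehicle peak of MR overlapped 4 sites and a vehicle peak of GR overlapped 0, which allows a share of up to 0.0439% (3 counts).

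The MR-only lost sites carried fewer GREs than the MR-only sites that were retained. A GRE lay within 100 bp of the summit in 37.0% of MR-only lost sites (2524 of 6826, interval 35.8% to 38.1%), and in 51.9% of MR-only retained sites (48.5% to 55.4%). Windows of the same length 1000 bp away from the MR-only lost sites held a GRE in 15.4%. Within bands of strength the odds ratio between lost and retained MR-only sites was 0.553 (0.474 to 0.645, adjusted p = 1.91e-13, exact conditional Cochran-Mantel-Haenszel test). The percentage was lower in MR-only lost sites in every band, from 38.4% against 43.3% in the second band to 35.0% against 57.3% in the strongest. For a GRE centred within 20 bp of the summit, the percentages were 18.8% and 33.6% (odds ratio 0.493, 0.417 to 0.583, adjusted p = 2.58e-15, same exact test).

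Against sites shared with GR that were also lost, no difference in GREs passed the test. The shared lost sites had a GRE in 37.2% (odds ratio 1.02, 0.938 to 1.11, adjusted p = 0.712, exact test). This comparison turned with the definitions. With at most 2 mismatches the odds ratio was 1.31, with MR-only lost sites at least 500 bp from the other peaks it was 1.14, and with sites counted as shared when summits lay within 50 bp it was 0.886. Each of these passed the threshold, and over all alternatives the ratio ranged from 0.886 to 1.31.

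Against all other MR peaks together, of which 42.6% had a GRE, the odds ratio was 0.873 (0.810 to 0.940, adjusted p = 0.00104, exact test). It did not pass with MR-only lost sites at least 500 bp from other peaks (0.974) or with at most 2 mismatches (0.9505). For a GRE within 20 bp it was 0.852 (0.780 to 0.932, adjusted p = 0.00121, exact test), and the same settings gave 0.974 and 0.907 and ended the call.

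**Figure D2:**
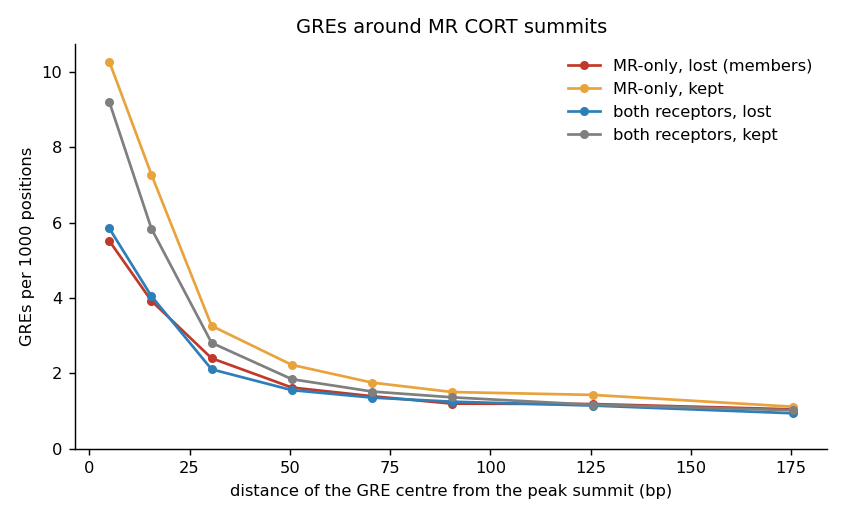
Lines give GREs per 1000 positions, pooled over bands of strength (y axis), by the distance of the GRE centre from the peak summit in bp (x axis) for the 4 groups of MR peaks. Within 10 bp of the summit the MR-only lost sites had 5.52 per 1000, near the 5.85 of shared lost sites and under the 10.3 and 9.20 of the retained groups.

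Most GREs in the MR-only lost sites departed from the palindrome. The best match had 0 mismatches in 4 sites, 1 in 117, 2 in 596 and 3 in 1807. At most 2 mismatches were found in 10.5% of MR-only lost sites, 19.2% of MR-only retained, 8.61% of shared lost and 16.1% of shared retained sites. Where a GRE was present, its centre lay a median of 21 bp from the summit, against 15, 19 and 14 bp in those groups. The single hexamer AGAACA, the left arm of the palindrome and counted also where it lies in a GRE, was present in 33.5% of MR-only lost and 40.2% of MR-only retained sites, with 17.4% in the windows 1000 bp away. Its odds ratio was 0.746 (0.637 to 0.873, adjusted p = 0.000918, exact test).

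The Phox2a and GATA motifs were also less frequent in MR-only lost than in MR-only retained sites. Phox2a is a homeobox factor and GATA factors are zinc-finger proteins, and both families act in sympathetic neuroblasts. The Phox2a motif, a palindrome of homeobox sites searched with at most 1 mismatch, lay within 100 bp of 3.35% of MR-only lost sites and 7.90% of MR-only retained sites, with 2.48% in the windows 1000 bp away (odds ratio 0.391, 0.288 to 0.536, adjusted p = 1.03e-07, exact test). The shared lost sites had 3.37%, and the odds ratio to them was 0.992 (0.790 to 1.25), which became 0.751 and passed the test when peaks were banded by GC content as well, a setting chosen after seeing the data. The GATA motif AGATAA was present in 12.2% of MR-only lost and 17.3% of MR-only retained sites, with 10.3% in the distant windows (odds ratio 0.681, 0.554 to 0.841, adjusted p = 0.00109, exact test). Against shared lost sites, with 11.1%, the ratio of 1.10 (0.970 to 1.25) did not pass, but did with windows of 200 bp (1.12) and with summits within 50 bp counted as shared (1.18), and it turned to 0.959 with GC bands. The Phox2a difference from all other MR peaks (4.28%, odds ratio 0.787, adjusted p = 0.0272, exact test) was lost in 5 alternatives, among them leaving out chromosome 8 (0.824).

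The AP-1 motif was less frequent in MR-only lost sites than in shared lost sites, while no difference from MR-only retained sites passed the test. AP-1, a dimer of Fos and Jun proteins, was searched as TGACTCA or TGAGTCA. It was present in 6.64% of MR-only lost sites, 6.65% of MR-only retained sites and 8.89% of shared lost sites, with 3.82% in the windows 1000 bp away. The odds ratio of MR-only lost to shared lost sites was 0.718 (0.617 to 0.836, adjusted p = 8.37e-05, exact test) and to MR-only retained sites 0.982 (0.724 to 1.35, adjusted p = 0.925, exact test). Against all other MR peaks (8.88%) it was 0.735 (0.640 to 0.843, adjusted p = 4.30e-05, exact test). With −log10 q of at least 5 the calls against shared lost sites (0.791) and all others (0.817) were lost.

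The SP/KLF box GGGCGG, bound by zinc-finger factors of GC-rich promoters, was likewise less frequent in MR-only lost sites (4.88%) than in shared lost sites (6.63%, odds ratio 0.772, 0.648 to 0.921, adjusted p = 0.00834, exact test), with 4.04% in the distant windows. When peaks were banded by GC content as well, the ratio was 0.991 and the call was lost, as it was with −log10 q of at least 5 (0.819). The same holds against all other MR peaks (6.37%, odds ratio 0.819, adjusted p = 0.0272, exact test), where the ratio became 0.959. The E-box CAGCTG was present in 14.2% of MR-only lost sites and 9.70% of distant windows, and the NF-1 motif, TTGGC and GCCAA separated by any 5 bases and with at most 2 mismatches, in 8.38% and 6.23%. Neither passed the test in any of the 3 comparisons, where the odds ratios lay between 0.873 and 1.02. With windows of 200 bp to each side NF-1 passed in all 3 comparisons (0.754 to 0.879) and the E-box against all other peaks (0.885) and shared lost sites (0.858). None of the 7 motif families was found in 36.7% of MR-only lost sites, against 23.7% of MR-only retained, 33.8% of shared lost and 26.0% of shared retained sites. A motif match is a description of the letters in a window and does not show that a factor was bound there.

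**Figure D3:**
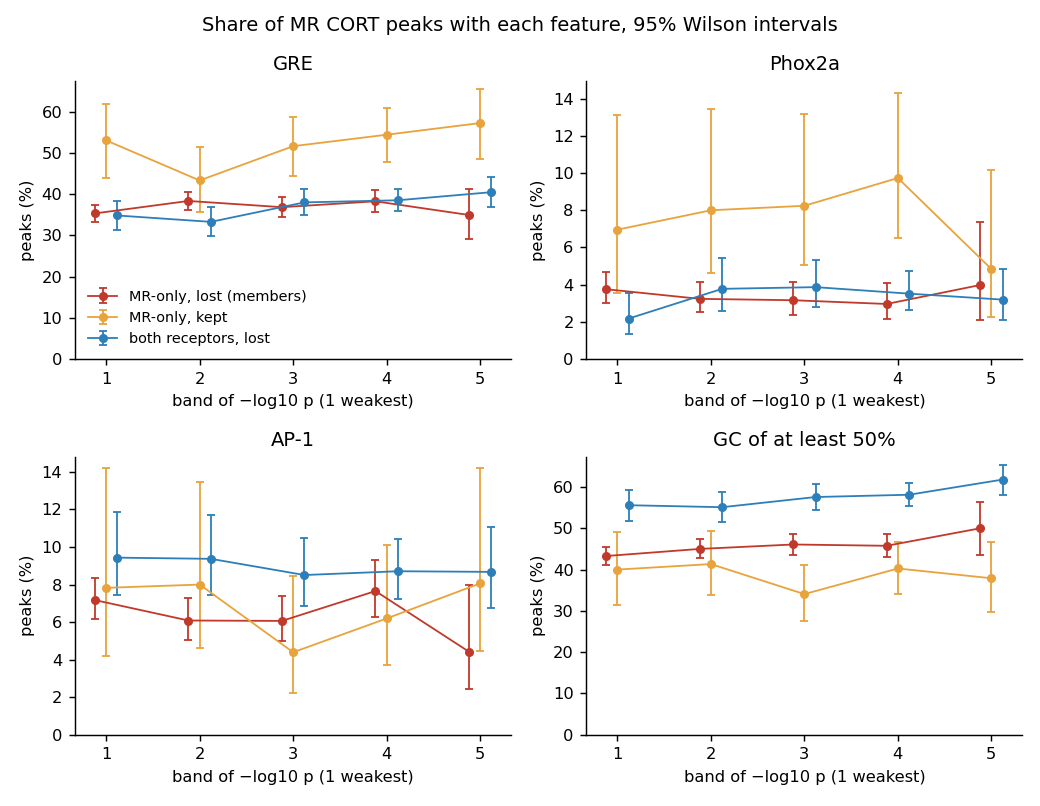
Points give the percentage of peaks with a GRE, a Phox2a motif, an AP-1 motif or a GC content of at least 50% (y axes) in 5 bands of −log10 p (x axes, 1 weakest), with 95% Wilson intervals. In the strongest band the GRE percentage was 35.0% in MR-only lost, 57.3% in MR-only retained and 40.5% in shared lost sites.

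Base composition differed between MR-only lost sites and both groups tested singly, in opposite directions. A GC content of at least 50% within 100 bp of the summit was found in 45.0% of MR-only lost sites, 57.6% of shared lost sites and 38.6% of MR-only retained sites, and in 30.2% of the windows 1000 bp away. The odds ratio was 0.627 (0.577 to 0.680, adjusted p = 4.79e-28, exact test) to shared lost sites and 1.34 (1.15 to 1.57, adjusted p = 0.000918, exact test) to MR-only retained sites. The MR-only lost sites thus lay between the other groups, with a median GC content of 49.3% against 51.2% and 48.3%. Sequences that the reference genome marks as repeats held the summit of 514 MR-only lost sites (7.53%), against 5.63% of shared lost sites (odds ratio 1.35, 1.14 to 1.60, adjusted p = 0.00112, exact test) and 8.91% of MR-only retained sites (0.845, 0.644 to 1.12). Against all other MR peaks together the GC ratio was 0.722 (adjusted p = 1.43e-17) and the repeat ratio 1.29 (adjusted p = 0.00168, exact tests). Of the 514 MR-only lost sites with the summit in a repeat, 9 also overlapped an input border pair.

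Introns held 59.3% of MR-only lost sites, and 22.1% lay more than 5 kb from every annotated gene. Coding exons held 2.49%, UTRs 2.34% and other exons 2.80%, and 10.97% lay within 5 kb of a gene. A transcription start site lay within 1 kb of 7.22% of MR-only lost and 10.1% of shared lost sites (odds ratio 0.705, 0.610 to 0.816, adjusted p = 1.19e-05, exact test), a call that was lost with −log10 q of at least 5 (0.781). Against all other MR peaks (9.09%) it was 0.803 (adjusted p = 0.00296, exact test), and with −log10 q of at least 5 it was 0.916 and did not pass. Against MR-only retained sites, with 5.14%, the ratio was 1.42 (1.01 to 2.03, adjusted p = 0.0799, exact test). That ratio passed the threshold in 4 alternatives, where it was 1.69 to 1.79. The share more than 5 kb from genes passed the test in none of the 3 comparisons, with odds ratios from 0.936 to 1.07. The share of eligible MR peaks that were MR-only lost ran from 40.8% on chromosome 19 to 59.1% on chromosome 14. Chromosome 8 held most of them per length, 5.05 per Mb, but it also held the most eligible MR peaks (1568), of which 41.6% were MR-only lost. Chromosome X held fewest per length, 0.363 per Mb, with 55.9% of its 111 MR peaks in the group.

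**Figure D4:**
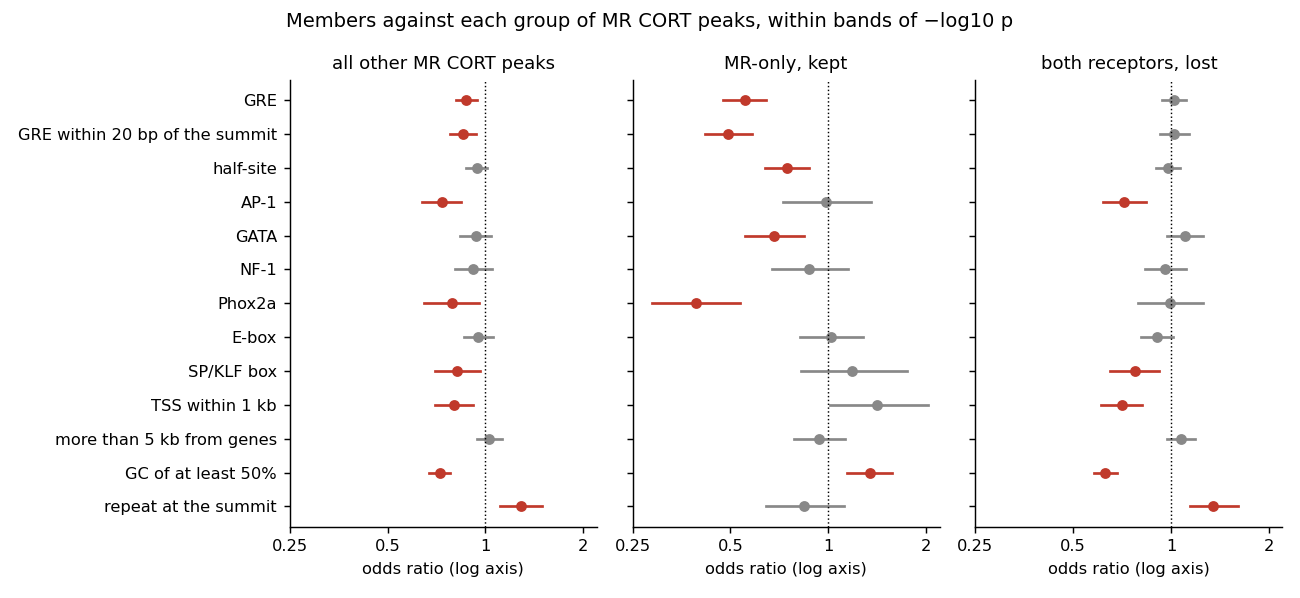
Points give the common odds ratio (x axis, log scale) of each sequence or position feature in MR-only lost sites against 3 groups of MR peaks, within bands of −log10 p, with 95% intervals and red where the adjusted p is under 0.05. An AGAACA hexamer appears as half-site. The GRE lies at 0.553 against MR-only retained sites and at 1.02 against shared lost sites, whereas AP-1 lies at 0.982 and 0.718.

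The 10 strongest MR-only lost sites had −log10 p from 20.7 to 23.7. The strongest lay 9393 bp upstream of Emb, which encodes a membrane glycoprotein, and in an intron of Mitf, a transcription factor of pigment cells, 364 bp from its start site, both at 23.7. The others lay in an intron of Gm10717 on chromosome 9 (23.7, in a repeat), nearest to the starts of Emp1 (22.4) and Ctnnbl1 (22.2), in an intron of Col4a2 (21.7), a chain of basement membrane collagen, in an intron of Babam2 and near Ecm1 and Tpbgl (21.2 each) and 696415 bp from Pou3f3 (20.7). Of these 10, 5 were intergenic and 4 were intronic, 4 lay within 100 bp of a GR peak after CORT, and 4 lay more than 10 kb from any GR peak after CORT and MR washout peak. Over all MR-only lost sites these shares were 22.1%, 59.3%, 10.8% and 51.2%. A GRE with at most 3 mismatches was found in 3 of the 10, against 37.0% of all MR-only lost sites. These 3 are shown as the receptor sequences of the strongest sites, plus strand with the match in capitals.
Col4a2, intron, chr8:11425645-11425673: ccaggcaGGAACATCGTGTTCCacatttg
Ecm1, within 5 kb of a gene, chr3:95733014-95733042: gtcacagAGAACACCAAGGTCAcaggtca
Pou3f3, intergenic, chr1:41999343-41999371: gataccaAGCACAAACTGTCCTggggaac

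The Col4a2 and Pou3f3 matches have 2 mismatches and are centred 1 and 4 bp from the summit, and the Ecm1 match has 3 and lies 33 bp away. The absence of a match in the other 7 says only that these letters are not within 100 bp of the summit.

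The MR-only lost sites were spread over many genes. In or within 5 kb of 2990 protein-coding genes lay at least 1 site, with 1954 genes holding 1 and 1036 holding more. Of the 2990 genes, 1699 (56.8%) also had a GR peak after CORT, 1082 (36.2%) also had an MR washout peak and 1189 (39.8%) had neither. Over all 4491 protein-coding genes with an MR peak after CORT these shares were 68.8%, 41.6% and 26.5%, and a gene with an MR peak but no MR-only lost site has a GR or washout peak by the rule itself. The gene with most was Gm20388, with 117 of its 315 MR peaks, which is annotated across 4435 kb of chromosome 8 and contains other genes. It was followed by Gse1 with 22 of 89, Slit3 with 20 of 52, Frmd4a with 17 of 36 and Fgfr2 with 16 of 27. Over all eligible MR peaks the share in the group was 47.0%. Gm20388, Gse1 and Slit3 lay under that share, Frmd4a about there and Fgfr2 above it, so a high count is not a high share. Gse1 lies inside the span of Gm20388, so its sites are among the 117. Slit3 encodes an axon guidance ligand and Fgfr2 a receptor for fibroblast growth factors. Per length, Gse1 had 6.06 sites per 100 kb, Slit3 3.35 and Fgfr2, annotated across 2961 kb, 0.539.

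Gene lists chosen for the receptors and the cell type held a small part of the MR-only lost sites. Over all 21924 protein-coding genes, 4491 had an MR peak after CORT and 2990 had an MR-only lost site. Of 22 glucocorticoid target genes 7 had a site, with 12 sites in all (0.176% of MR-only lost sites, 0.101% to 0.307%) against 36 of the other MR peaks (0.467%, 0.338% to 0.646%). Of 13 genes of MR signalling and sodium transport 6 had a site, of 18 transcription factors of sympathetic neuroblasts 3, of 38 glutamate and GABA receptor genes 4, and of 94 potassium channel genes 16, with 7, 10, 4 and 34 sites in turn. The share of MR-only lost sites at these lists was 0.103%, 0.146%, 0.0586% and 0.498%, against 0.117%, 0.208%, 0.130% and 0.571% of the other MR peaks. The intervals of both shares overlapped for these 4 lists and not for the glucocorticoid targets, a description with no test. These intervals treat peaks as independent, and Fkbp5 alone held 15 MR peaks of the glucocorticoid target list, 1 of them in the group. The shares also depend on the rule, which leaves out peaks that overlap a GR peak. The glucocorticoid target list holds Ddc, Syt2 and Dusp4, which the study measured because both receptors bound them in these same data. The share at that list is therefore not independent of how its genes were chosen.

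At the glucocorticoid targets, MR-only lost sites mostly stood among other MR peaks. Ddc, the decarboxylase that makes dopamine and serotonin, had 4 of 8 MR peaks in the group, at −log10 p of 6.54, 5.31, 6.28 and 9.17, none with a GRE. Syt2, a synaptic calcium sensor, had 3 of 5, at 10.6, 9.17 and 5.31, of which 2 had a GRE. Fkbp5, a co-chaperone of steroid receptors, had 1 of 15 MR peaks in the group (9.17), 79 bp from a GR peak, while 7 of its peaks were shared retained sites. Tsc22d3, which encodes the leucine zipper protein GILZ, had a single MR peak in or within 5 kb of the gene, and it was an MR-only lost site (7.42), 52868 bp from the nearest GR peak. Dusp1 and Dusp4, phosphatases of MAP kinases, and Nfkbia, the inhibitor of NF-kB, had 1 site each, of 2, 3 and 3 MR peaks. Over all eligible MR peaks the share in the group was 47.0%, and the counts at Ddc and Syt2 lie about there.

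In the remaining lists the gene with most sites was Scnn1b, Klf7, Gria1 or Kcnab2. Scnn1b, a subunit of the epithelial sodium channel, had 2 of 6 MR peaks in the group (9.17 and 14.9), neither with a GRE. Klf7, a transcription factor of developing neurons, had 5 of 6 in the group, at 7.42, 9.17, 14.9, 11.98 and 9.82, of which 2 had a GRE with 2 mismatches. Gria1, an AMPA receptor subunit, had 1 MR peak, an MR-only lost site at 12.5 whose nearest GR peak was 485708 bp away. At Kcnab2, the beta subunit of voltage-gated potassium channels, all 4 MR peaks were MR-only lost sites, at 10.6, 11.7, 7.23 and 9.61, and each had a GRE with 3 mismatches. The Klf7 and Kcnab2 sequences are shown because nearly all MR peaks of these genes belonged to the group. Klf7 and Kcnab2 lie on the minus strand of GRCm38, and the bases printed are of the plus strand with the GRE match in capitals.
Klf7, intron, chr1:64044941-64044969: agagaaaAGACCAGGGTGCTCTtcaggaa
Klf7, intron, chr1:64090967-64090995: gaagcacATAACAGTCTGTCCTcgaggac
Kcnab2, other exon, chr4:152411201-152411229: tcagcctAGGACAAACGGTTCAgtgacca
Kcnab2, intron, chr4:152446829-152446857: tgaacctAGAGCTCACTGATCTatctaga
Kcnab2, intron, chr4:152475919-152475947: ccccagtAGTACACAGTGGCCTgggctct
Kcnab2, intron, chr4:152476147-152476175: tgtggacTGAACTTGGTGTTCCtgtcttc

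Of the 4 Kcnab2 sites, the one at 10.6 lay 36 bp from a GR peak and 360 bp from an MR washout peak, and the other 3 lay at least 35187 bp from either. The sites 1.93 and 1.72 kb from the Kcnab2 start are 208 bp apart, so their windows of 100 bp to each side do not overlap. The nearest protein-coding start to all 4 Kcnab2 sites was that of Nphp4. It lay 762 bp from the site at 1.93 kb and 554 bp from the site at 1.72 kb.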

How the data were processed

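Peaks and border pairs came from ChIP-nexus of 9 samples. The authors trimmed the reads, aligned them to GRCm38/mm10 with Bowtie2, removed duplicates by random barcode, filtered on mapping quality, combined 3 replicates, and called peaks against input with MACS2 2.1.1.20160309 at a false discovery rate of 0.05, and border pairs with MACE 1.2. The study gives the aim of the mapping quality filter as limiting mapping in highly repetitive regions, and reads in repeats were not measured here. Scores as deposited equal 10 times −log10 q, cut to a whole number. The deposited −log10 values are −log10 p and, under a heading for fold enrichment, −log10 q. The border pairs used here were deposited with a p-value, which was not used. −log10 p grows with depth and was used to band peaks, not as an amount of binding. GR border pair lists and MR vehicle border pairs were not used here.

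Overlap needed 1 bp, with deposited starts read as counted from 0 and printed coordinates counted from 1. Sequence was read with pysam 0.24.0 and samtools 1.23.1 from the reference of the same build, and genes were those of GENCODE M21. Peaks were compared in 5 bands of −log10 p by the two-sided exact conditional Cochran-Mantel-Haenszel test (R 4.3.3), for 13 measures in 3 comparisons, with Benjamini-Hochberg adjustment over the 39 and a threshold of 0.05. An odds ratio under 1 means the feature was less frequent in MR-only lost sites. Of the 6826 windows, 432 had a further such summit within 200 bp and shared bases with it, so peaks are not fully independent. Tables and figures used Python 3.11.15, numpy 2.4.6, pandas 2.3.3, scipy 1.17.1 and matplotlib 3.10.9, and the test was checked on simulated data. Alternatives numbered 13, with 1 added after seeing the data. The sites named are the 10 strongest, the 6 with fewest GRE mismatches, the 3 nearest each side of the rule, and those at the 5 genes with most sites and the leading gene of each list. For the 6, ties were broken by strength and chromosome 18 was left out. The other glucocorticoid targets with a site were named after their values were seen. The members, lists and tests were chosen with earlier results of these data known.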

Additional observations from a re-analysis of the deposited data

Results flagged for a closer look

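A signal outside the comparisons appeared in the washout libraries. MR border pairs after washout overlapped 29 MR-only lost sites (0.425%), although none of these sites overlapped an MR washout peak, against 14 sites that overlapped a border pair of the washout input. Among shared lost sites, which also lack a washout peak and were wider, 33 (0.793%) overlapped such an MR border pair. The MR washout list holds 1670 border pairs and the input list 5509. GR peaks after washout overlapped 8 MR-only lost sites, against 0 for GR vehicle peaks, from lists of 246 and 64 peaks. This is 0.117% of MR-only lost sites, the lowest share of the 4 groups, against 0.251% of MR-only retained, 0.505% of shared lost and 5.82% of shared retained sites. Of these 8 sites, 5 lay within 100 bp of a GR peak after CORT, 3 had their summit in a repeat and 3 had a GRE. Over all MR-only lost sites these shares were 10.8%, 7.53% and 37.0%, so the count with a GRE is about that of the group. The strongest of the 8 was 31910 bp upstream of Ctnnbl1, at a −log10 p of 22.2, and 45 bp from a GR peak after CORT. The cause of either signal was not tested.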

How the results depend on the processing

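Of the 39 tested results 19 passed the threshold, and none of these changed direction in any alternative. Of these 19, 10 passed in every alternative that gave a value: GC content in all 3 comparisons, repeats against all others and shared lost sites, and GRE, central GRE (within 20 bp), AGAACA hexamer, GATA and Phox2a against MR-only retained sites. Over 448 alternative values, which include alternative numbers of MR-only lost sites, 376 were counted as the same. For an odds ratio this means that direction and side of the threshold were kept. For a number of sites it means that it stayed within a fixed factor of 6826. The number was 8572 when overlap was replaced by summits within 50 bp. The odds ratios that changed direction or side of the threshold are given by setting. With sites shared when summits lay within 50 bp, Phox2a against all others (0.920) lost its call, GATA against shared lost sites (1.18) gained a call, and GRE (0.886), central GRE (0.825) and Phox2a (1.32) turned against shared lost sites. With MR-only lost sites at least 500 bp from other peaks, GRE (0.974), central GRE (0.974) and SP/KLF (0.842) against all others lost their calls, GRE (1.14) and central GRE (1.17) against shared lost sites gained calls, and the hexamer turned there (1.01). With −log10 q of at least 5 the number of MR-only lost sites was 2461, and calls were lost for AP-1 (0.817), SP/KLF (0.877) and TSS (0.916) against all others and for AP-1 (0.791), SP/KLF (0.819) and TSS (0.781) against shared lost sites. There, TSS against MR-only retained sites (1.76) and the E-box against shared lost sites (0.811) gained calls, and AP-1 (1.11) and the E-box (0.907) against MR-only retained sites and GRE against shared lost sites (0.946) turned. Without bands, distance over 5 kb against all others (0.996) and GRE (0.990) and central GRE (0.940) against shared lost sites turned. Without chromosome 8, Phox2a against all others (0.824) lost its call, and AP-1 against MR-only retained sites (1.07) and GRE (0.992), central GRE (0.981) and Phox2a (1.05) against shared lost sites turned. With 1 peak per 1 kb, calls were lost for Phox2a (0.802), SP/KLF (0.859) and TSS (0.844) against all others, TSS against MR-only retained sites (1.73) gained a call, and AP-1 against MR-only retained sites (1.03) and GRE (0.968), central GRE (0.9502) and Phox2a (1.17) against shared lost sites turned. Without repeats, SP/KLF against all others (0.845) lost its call, TSS against MR-only retained sites (1.69) gained a call and the E-box there (0.972) turned. Repeats themselves have no value without repeats. With windows of 50 bp, Phox2a against all others (0.755) lost its call, and the hexamer (1.00) and NF-1 (1.04) against shared lost sites turned. With windows of 200 bp, Phox2a against all others (0.885) lost its call, and calls were gained for NF-1 (0.841) and the E-box (0.885) against all others, NF-1 against MR-only retained sites (0.754), and GATA (1.12), NF-1 (0.879) and the E-box (0.858) against shared lost sites. In these windows the E-box against MR-only retained sites (0.918) and Phox2a against shared lost sites (1.09) turned. With at most 2 mismatches, GRE (0.9505) and central GRE (0.907) against all others lost their calls and GRE (1.31) and central GRE (1.29) against shared lost sites gained calls. With protein-coding genes only, TSS against MR-only retained sites (1.79) gained a call. With bands of −log10 p and GC, chosen after seeing the data, SP/KLF lost its calls against all others (0.959) and shared lost sites (0.991), and the hexamer (0.894) and GATA (0.846) against all others and Phox2a against shared lost sites (0.751) gained calls. With those bands the E-box against all others (1.02), the E-box (0.956) and SP/KLF (0.946) against MR-only retained sites, and GRE (0.948), central GRE (0.963), GATA (0.959), NF-1 (1.01) and the E-box (1.00) against shared lost sites turned. The cause of these changes was not tested.

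No paired analysis was possible because the authors pooled the replicates of each condition into 1 list. No replicate was left out, as the lists do not hold replicates. Depth and threshold set which weak peaks a list holds, and the intervals do not cover this. The lowest −log10 p was 4.35 in the GR list after CORT and 4.89 in the MR list after washout.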
